A study of Mus musculus with 6 samples.

Results

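The genes described here encode the proteins of the cytosolic ribosome, the particle that reads messenger RNA into protein. They were chosen by name: symbols that begin with Rpl or Rps followed directly by a digit, plus Rplp0, Rplp1, Rplp2 and Rpsa, with the ribosomal protein S6 kinases and the symbols that contain -ps left out. This gave 86 genes of the 32285 in the files, 52 with large-subunit and 34 with small-subunit names. Of the 86, 9 are paralogs or look-alike symbols, and 1 of these, Rps19bp1, encodes a protein that binds Rps19 and is not part of the ribosome. The name rule does not reach genes such as Fau and Rack1, whose products also belong to ribosomes.

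Single-nucleus RNA sequencing was performed on frontal lobe of 6 mice of the Tg-SwDI line, a model of amyloid deposition in brain vessels that carries human APP bearing 3 familial changes, Swedish, Dutch and Iowa. Of these mice, 3 had wild-type Trem2 (SwDI/TWT, called wild type below) and 3 had Trem2 knocked out (SwDI/TKO, called knockout). Trem2 is a lipid-sensing receptor of microglia, the immune cells of the brain. All 6 mice carry the transgene, so no comparison here concerns the transgene itself, and neither the mice's age and sex nor the transgene's promoter or the Trem2 allele is stated in the labels. Libraries were counted as unique molecular identifiers (UMIs, each standing for 1 captured transcript end).

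A ribosome has a large and a small subunit, and most of their proteins are present in a single copy, while the stalk proteins Rplp1 and Rplp2 are present in more. The genes for them are short, strongly transcribed and present in every cell. Their transcripts start in a run of pyrimidines, the 5′ terminal oligopyrimidine (TOP) motif, through which mTORC1 signalling sets how strongly they are translated. Nearly all of the finished transcripts lie in the cytoplasm, so a nucleus holds mainly newly made copies and whatever cytoplasmic RNA remains attached or free in the droplet.

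The start sites of members on which the results turn are shown so that the letters around the start can be set beside where each gene was high. The sequences are from RefSeq on GRCm38.p6, on the gene's own strand, from 30 bases before the start to 20 bases into the transcript, with each CTTTC in capitals. Rps9 and Rplp0 were high in microglia, Rpl13 in oligodendrocyte precursors, Rps4x and Rpl15 in excitatory neurons and Rpl26 in striatal projection neurons, and Rps27 and Rpl18 are shown for contrast.
Rps9, chr7:3704011-3704060, plus strand: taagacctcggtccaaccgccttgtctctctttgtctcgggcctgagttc
Rplp0, chr5:115559437-115559486, plus strand: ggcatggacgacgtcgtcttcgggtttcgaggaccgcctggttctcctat
Rpl13, chr8:123102320-123102369, plus strand: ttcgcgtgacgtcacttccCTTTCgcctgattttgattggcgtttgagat
Rps4x, chrX:102189372-102189421, minus strand: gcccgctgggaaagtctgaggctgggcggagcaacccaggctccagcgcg
Rpl15, chr14:18270967-18271016, minus strand: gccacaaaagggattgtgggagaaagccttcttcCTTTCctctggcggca
Rpl26, chr11:68901536-68901585, plus strand: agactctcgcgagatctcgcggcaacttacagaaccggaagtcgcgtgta
Rps27, chr3:90213629-90213678, minus strand: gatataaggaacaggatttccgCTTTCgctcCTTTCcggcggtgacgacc
Rpl18, chr7:45718041-45718090, plus strand: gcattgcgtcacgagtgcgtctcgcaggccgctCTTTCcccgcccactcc

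The RefSeq table held 66 of the 86 genes, with 78 start sites. Within 40 bases on either side of the start, CTTTC stood on the gene's strand at 42.31% of the members' sites, against 10.29% of all 32851 sites in the table. On the other strand, where it reads GAAAG, the shares were 11.54% and 9.969%. A C at the first transcribed base followed by 4 pyrimidines was found at 17.95% of the members' sites and at 2.505% of all sites. A match of letters is a description and not a measured start, and annotated starts can lie some bases from the real ones. Of the 8 sequences shown, those of Rps9, Rplp0, Rps4x and Rpl26 hold no CTTTC, and those of Rpl13, Rpl15, Rps27 and Rpl18 hold it.

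The files hold 5220 to 8095 barcodes per library, where the study states 5700 to 8100 nuclei. After the filter on genes and mitochondrial UMIs described below, 34281 of 39752 barcodes remained. Total UMIs ranged from 11493087 to 51317961 per library, and the largest total was that of knockout replicate 1. That library was also the only one counted with Cell Ranger 7.0.0 rather than 6.1.2. Knockout replicate 3 lost the most barcodes to the filter, 29.99%, and had the highest mitochondrial share, 2.19% against 0.695% to 1.45% in the other 5 libraries. Both libraries stood apart in the ribosomal protein genes too, so results are given with and without them where they matter. Between pairs of libraries, 5 to 14 barcodes were shared. Trem2 UMIs in microglial nuclei came to 1182, 1165 and 634 CPM (counts scaled to a library total of 1000000) in the wild-type replicates 1 to 3 and to 159, 559 and 320 CPM in the knockout replicates. The groups did not overlap, and Trem2 was lower but present in every knockout library. A 3′ tag can lie outside the changed part of the gene, so the residue says nothing of the protein.

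Nuclei were placed in 7 classes by marker genes that include no ribosomal protein gene, and 23124 nuclei fell into them. These were excitatory, inhibitory and striatal projection neurons, astrocytes, oligodendrocytes, oligodendrocyte precursors and microglia. A class's own panel had a median of 4 to 10 markers detected per nucleus, and every other panel had a median of 0 to 2. A further 6544 nuclei missed the gate by 1 marker or by 1 step of its lead over the next panel, and 5506 lay just inside it.

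In every one of the 6 mice, ribosomal protein transcripts took a larger share of the UMIs in microglia than in any other class. In microglia the summed share was 1.79%, 1.71% and 1.05% in the wild-type replicates and 0.714%, 1.74% and 2.57% in the knockout replicates. In excitatory neurons it was 0.681%, 0.635% and 0.405% in wild-type mice and 0.197%, 0.448% and 1.58% in knockouts. Within each library the microglial share was above the excitatory one, by 2.63, 2.69, 2.60, 3.63, 3.89 and 1.62 times in the same order. Knockout replicate 3 had the highest share and knockout replicate 1 the lowest in each of the 7 classes.

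Oligodendrocytes, which make myelin, had shares of 1.22%, 0.981% and 0.630% in wild-type mice and 0.425%, 0.660% and 1.75% in knockouts. Their precursors had 1.12%, 1.06%, 0.629%, 0.350%, 0.812% and 1.44% in the same order. Astrocytes, the main supporting cells, had 1.04%, 0.951%, 0.601%, 0.369%, 0.770% and 1.498%. These 3 glial classes lay between excitatory neurons and microglia in 5 of 6 libraries, and in knockout replicate 3 the astrocyte and precursor shares were below the excitatory one. Inhibitory neurons had 1.23%, 0.803%, 0.568%, 0.292%, 0.719% and 1.43%, and striatal projection neurons, the main output cells of the striatum, 0.812%, 0.674%, 0.393%, 0.214%, 0.499% and 1.83%. The striatal and excitatory shares were close in all 6 libraries.

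**Figure D1:**
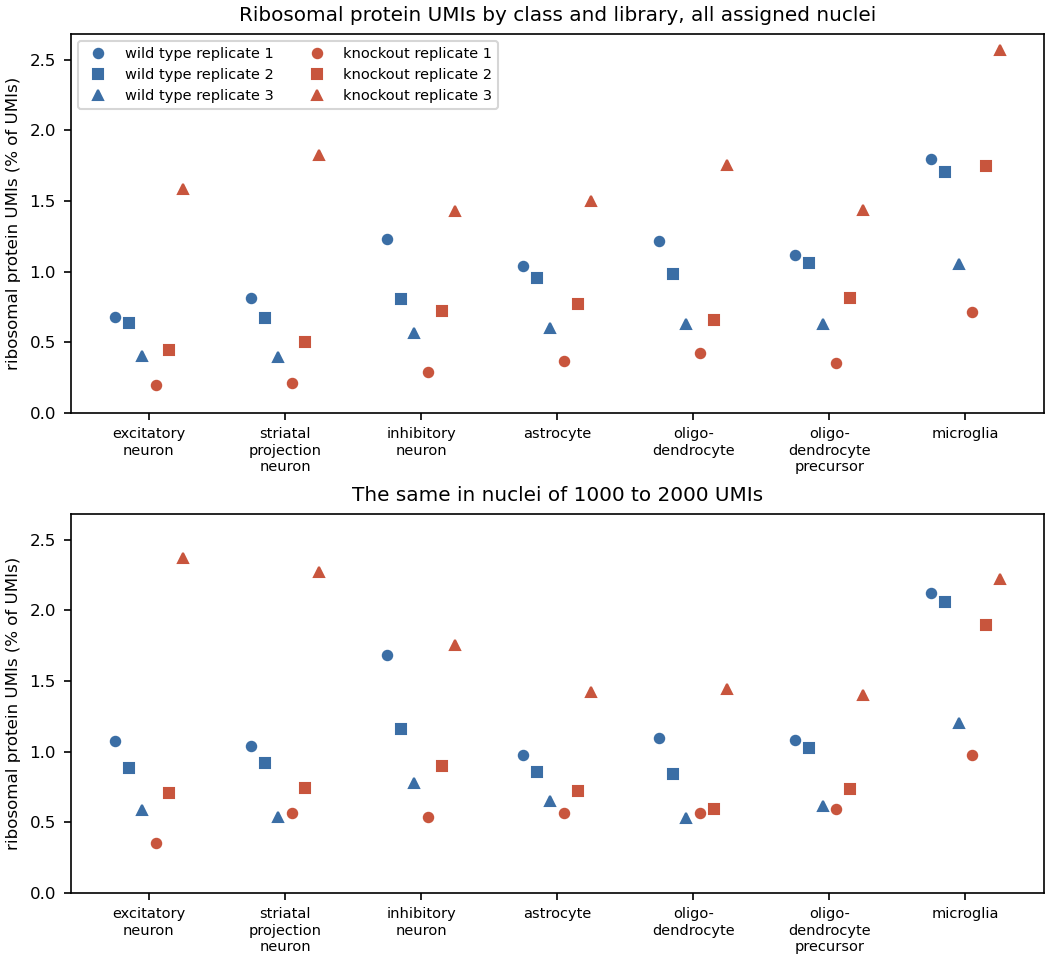
Share of all UMIs that came from the 86 ribosomal protein genes (percent, y axis) in each marker-defined class (x axis), with 1 point per library, coloured by genotype. The upper panel holds all assigned nuclei and the lower panel nuclei of 1000 to 2000 UMIs. In the upper panel microglia are the highest class in each library, at 0.714% to 2.57%. There the spread between libraries within a class is as wide as the spread between classes. In the lower panel, in knockout replicate 3, excitatory (2.37%) and striatal neurons (2.27%) lie above microglia (2.22%).

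Against excitatory neurons of the same mouse, the mean log2 ratio was 1.45 (SD 0.45, n = 6 mice) in microglia, a 2.74-fold higher share that was seen in 6 of 6 mice. It was 0.65 (SD 0.32) in oligodendrocytes, also in 6 of 6, and 0.61 (SD 0.37), 0.56 (SD 0.34), 0.46 (SD 0.35) and 0.13 (SD 0.11) in precursors, astrocytes, inhibitory neurons and striatal neurons, each in 5 of 6. With 6 mice the exact 2-sided sign-flip permutation test cannot give a p below 0.03125, which microglia and oligodendrocytes reached. Adjusted over the 6 comparisons the exact p was 0.0625 for each, so none passed 0.05. The order of oligodendrocytes, precursors, astrocytes and inhibitory neurons is within the spread between mice.

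A share cannot tell more ribosomal protein RNA from less other RNA, and the classes differed in how much RNA their nuclei gave. Microglial nuclei had median totals of 690 to 1463 UMIs per library and excitatory nuclei 2867 to 8821. Across all nuclei of a library, Spearman's rho between a nucleus's total and its ribosomal protein share was between -0.73 and -0.30. The points of this correlation are nuclei of 1 library, and the total is the denominator of the share. Values were therefore also taken in nuclei of 1000 to 2000 UMIs only, a restriction chosen after the data were seen.

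In those nuclei the microglial share was 2.12%, 2.06% and 1.199% in wild-type mice and 0.979%, 1.89% and 2.22% in knockouts. The excitatory share was 1.07%, 0.883% and 0.584% in wild-type mice and 0.354%, 0.707% and 2.37% in knockouts. Microglia were higher in 5 of 6 mice and lower in knockout replicate 3, with 11 to 239 microglial nuclei and 5 to 196 excitatory nuclei behind each value. The mean log2 ratio was 1.01 and the exact permutation p adjusted over 6 comparisons was 0.375. For oligodendrocytes, astrocytes and precursors the mean log2 ratios to excitatory neurons in this range were -0.08, -0.01 and 0.06. These means average opposite values: precursors had 0.75 in knockout replicate 1, where 5 excitatory nuclei gave 30 ribosomal protein UMIs, -0.76 in knockout replicate 3, and values from 0.01 to 0.22 elsewhere. Microglia had 0.98 to 1.47 in 5 libraries and -0.09 in knockout replicate 3. The range brought totals closer without matching them, as the median total per library was 1123 to 1420 UMIs in microglia and 1644 to 1804 in excitatory neurons.

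Oligodendrocytes and microglia could also be compared at 500 to 1000 UMIs, where both had at least 56 nuclei per library. Microglial shares were 1.95%, 1.95%, 1.25%, 1.30%, 2.02% and 2.85%, and oligodendrocyte shares 1.42%, 1.11%, 0.735%, 0.827%, 0.773% and 1.99%, from wild-type replicate 1 to knockout replicate 3. Microglia were higher in all 6 mice. At 2000 to 4000 UMIs only 4 to 61 microglial nuclei per library were left, with shares of 1.07%, 0.870%, 0.546%, 0.809%, 0.779% and 1.82% against 0.766%, 0.675%, 0.445%, 0.384%, 0.522% and 1.91% in excitatory neurons. The gap was smaller there, and knockout replicate 3 again had the higher share in excitatory neurons. At this depth microglia were the highest of the classes only in knockout replicates 1 and 2. Inhibitory neurons were above them in wild-type replicates 1 (1.19%) and 3 (0.606%). Oligodendrocytes were above microglia in the same libraries, at 1.071% against 1.066% in replicate 1 and 0.588% against 0.546% in replicate 3. Precursors, at 0.5505%, were also above microglia in wild-type replicate 3. Astrocytes were above them in wild-type replicate 2 (1.19%), and striatal neurons in knockout replicate 3 (1.99%). Excitatory markers were lower but present in microglial nuclei: the 12 summed to 374 to 791 CPM there against 2199.6 to 3230.3 CPM in excitatory nuclei. The 16 microglial markers summed to 13248 to 22927 CPM in microglial nuclei. How much of the microglial share came from RNA of other cells was not tested.

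Each gene was then compared between classes with edgeR's quasi-likelihood test on summed counts, with the mouse as a block, as each class against the mean of the other 6. Genes with a Benjamini-Hochberg adjusted p below 0.05 over all 12688 genes tested are called. Of the 86 genes, 82 passed the filter on low counts and 4 did not. In microglia 74 of the 82 were higher and 0 lower, where 24% of all genes were called higher and 28.7% lower. The members' median log2 difference was 0.84, against -0.13 for all genes, and the called members ranged from 0.38 to 1.58. Both subunits took part, with 44 of 49 large-subunit and 30 of 33 small-subunit symbols called. Without knockout replicate 1, 71 of the 74 were still called.

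Ranked by CPM within each library, 47 of the 82 genes were highest in microglia in all 6 libraries, a pattern shown by 9.55% of all genes tested. Of the remainder, 1 gene was highest in another class in all 6 libraries, and it was Rpl13 in oligodendrocyte precursors. In nuclei of 1000 to 2000 UMIs, 53 of the 77 members tested were higher in microglia and 0 lower, against 20.7% of all genes called higher and 1221 of 5234 lower. The members' median was 0.72. Without knockout replicate 1 the number called higher was 41. Across the 15 settings tried other than the 2 that scale to the members' own sum, 41 to 76 members were called higher in microglia and 0 lower. In those 2, described below, 12 to 16 were higher and 10 to 13 lower.

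The largest difference in microglia was that of Rps9 (chr7:3703993-3706897, plus strand, mm10), a small-subunit protein at the entry of the messenger RNA channel. Its level in microglia was 280, 312 and 190 CPM in wild-type mice and 92.0, 310 and 402 CPM in knockouts. In the other 6 classes it ranged from 18.2 to 168 CPM, and within each library microglia were above them all. The log2 difference was 1.58 ± 0.10 (SE; edgeR adjusted p = 3.47e-19), and 1.47 ± 0.22 (edgeR adjusted p = 1.94e-08) in nuclei of 1000 to 2000 UMIs.

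Rpl10a, a protein of the large subunit's L1 stalk, had 271, 257 and 226 CPM in wild-type and 103, 354 and 412 CPM in knockout microglia. Its log2 difference was 1.52 ± 0.12 (edgeR adjusted p = 3.45e-16), and a counted gene overlaps it on the other strand. In oligodendrocytes it had -0.33 ± 0.12 (edgeR adjusted p = 0.0164) and was the only member called lower there, for which it is singled out after its values were seen. Rps29, a small zinc-binding protein of the small subunit, reached 432, 481 and 237 CPM in wild-type and 136, 487 and 661 CPM in knockout microglia, with a log2 difference of 1.46 ± 0.11 (edgeR adjusted p = 3.31e-16). Rplp0 carries the P stalk that recruits elongation factors, and it had 180, 129 and 46.6 CPM in wild-type mice and 57.8, 137 and 215 CPM in knockouts, with 1.39 ± 0.15 (edgeR adjusted p = 2.44e-11). For each of these genes the genotypes overlapped within microglia, and knockout replicate 3 was highest.

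Not every member was higher in microglia. The 8 that were tested and not called are named here after their values were seen: Rps27, Rpl15, Rpl31, Rpl22l1, Rpl23a, Rpl35, Rps27l and Rps19bp1. Rps27, a zinc-finger protein of the small subunit and among the most abundant members, had 252, 339 and 161 CPM in wild-type and 83.7, 269 and 296 CPM in knockout microglia. In excitatory neurons it had 226, 206 and 115 CPM in wild-type mice and 43.9, 168 and 264 CPM in knockouts, so microglia were above excitatory neurons in each library. In wild-type replicate 1 inhibitory neurons, at 419 CPM, were above both. The log2 difference of microglia from the other classes was 0.07 ± 0.10 (edgeR adjusted p = 0.629) for Rps27 and -0.01 ± 0.11 (edgeR adjusted p = 0.937) for Rpl15. Rpl35 was near the threshold, at 0.57 ± 0.25 (edgeR adjusted p = 0.0526).

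Excitatory neurons lay at the other end from microglia: 72 of 82 members were lower and 2 higher, where 27% of all genes were called lower and 33.6% higher. The members' median was -0.55. The contrasts of a gene share the same class means, so high microglial values lower those of the other classes. The excitatory result is therefore not separate from the microglial one. In nuclei of 1000 to 2000 UMIs 17 of 77 were lower and 2 higher, against 16% of all genes called lower and 1156 of 5234 higher. The members' median there was -0.38. Rpl18, a large-subunit protein whose gene overlaps Sphk2 on the other strand, was lowest in excitatory neurons in all 6 libraries. It had 47.0, 43.6 and 26.5 CPM in wild-type mice and 17.4, 27.9 and 104 CPM in knockouts, with a log2 difference of -1.05 ± 0.09 (edgeR adjusted p = 4.54e-14). Its value was -1.08 ± 0.25 in the 1000 to 2000 UMI nuclei. Rps29, Rplp0 and Rpl13 followed at -1.02 ± 0.11, -0.98 ± 0.12 and -0.93 ± 0.10.

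In striatal projection neurons 47 members were lower and 2 higher, where 28.5% of all genes were called lower and 32.1% higher, with a median of -0.29. In inhibitory neurons 25 were lower and 0 higher, where 22.6% of all genes were called lower and 27.1% higher, with a median of -0.17. At 1000 to 2000 UMIs, 3 members were lower and 3 higher in striatal neurons, where 20.1% of all genes were called lower and 1244 of 5234 higher. In inhibitory neurons of that range 1 member was lower and 3 higher, where 10.6% of all genes were called lower and 902 of 5234 higher.

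In oligodendrocytes 32 members were higher and 1 lower, where 23.6% of all genes were called higher and 28.2% lower, and the median was 0.23. Among the largest were Rpl18, Rplp0 and Rps21, at 0.66 ± 0.09, 0.64 ± 0.13 and 0.64 ± 0.11. None of the members was called higher in nuclei of 1000 to 2000 UMIs, where 25.6% of all genes were. In that range 4 members were called lower, against 1207 of 5234 genes, and the members' median was -0.03. In astrocytes 10 were higher and 0 lower, where 21.9% of all genes were called higher and 21.3% lower, so the members' share was below the background. The 4 largest there were Rpl36a at 0.68 ± 0.23, Rplp0 at 0.51 ± 0.17, Rps24 at 0.50 ± 0.14 and Rpl21 at 0.45 ± 0.14. Rps24 and Rplp0 were also the 2 members called in astrocytes of 1000 to 2000 UMIs (21.6% of all genes called higher).

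In oligodendrocyte precursors 13 members were lower and 1 higher, where 16.2% of all genes were called lower and 15.5% higher. The number called lower was thus near the share of all genes. The members' median was -0.24, against 0.14 in astrocytes. The summed share placed the 2 classes side by side, at log2 ratios to excitatory neurons of 0.61 in precursors and 0.56 in astrocytes. That share is of unscaled UMIs and the fit uses TMM factors, and why the 2 measures differ was not tested. With relative-log-expression size factors in place of TMM, 3 members were lower (1710 of 12688 genes) and 1 higher (2126 genes). In nuclei of 1000 to 2000 UMIs 10 members were lower (11.2% of all genes) and 1 higher (837 of 5234 genes). Among the lowest were Rpl4 at -0.62 ± 0.23 and Rpl17 at -0.57 ± 0.21. Leaving out knockout replicate 1 ended the call of Rpl17 (edgeR adjusted p = 0.0918).

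**Figure D2:**
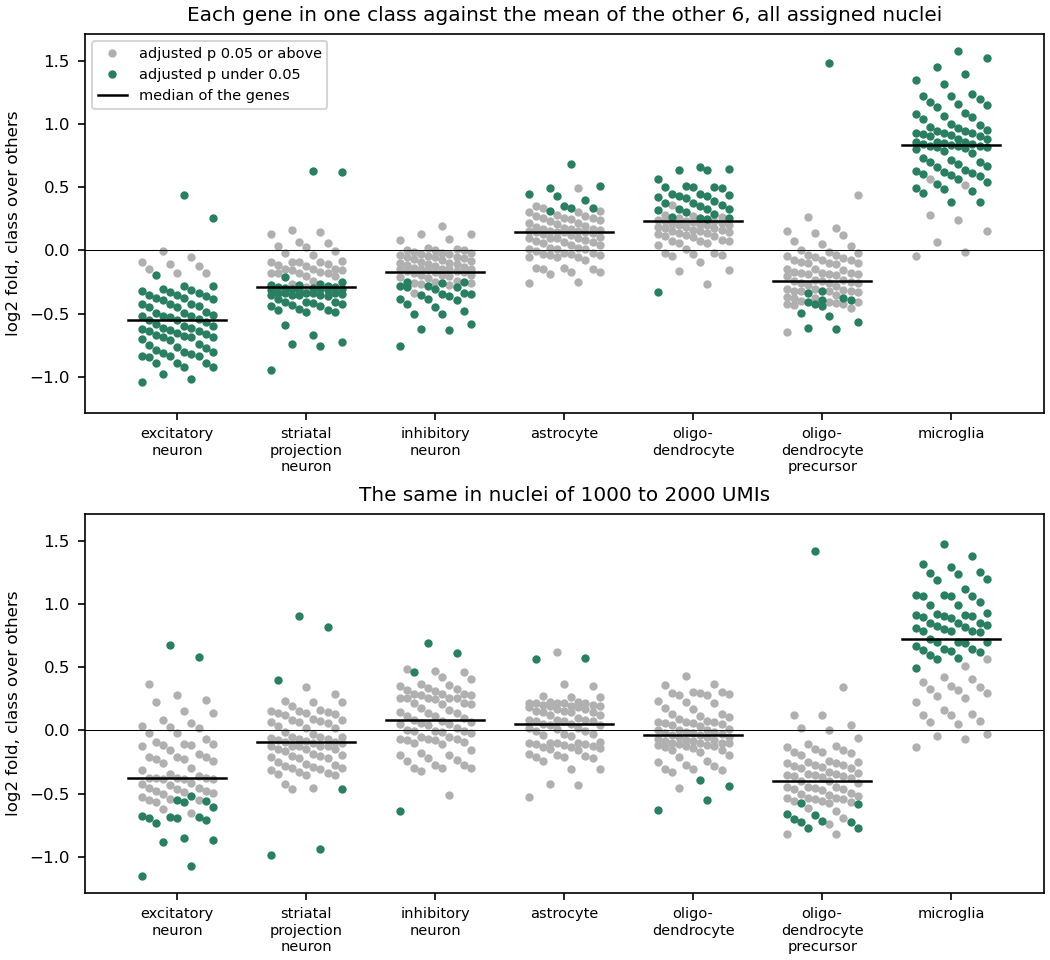
Log2 difference of each ribosomal protein gene in a class from the mean of the other 6 classes (edgeR, 6 mice), with 1 point per gene and class. The upper panel holds all assigned nuclei and the lower panel nuclei of 1000 to 2000 UMIs. In the upper panel 74 of 82 genes were called higher in microglia and 72 were called lower in excitatory neurons. There the point far above the others in oligodendrocyte precursors is Rpl13 at 1.48. In the lower panel 53 of 77 genes were called higher in microglia and 17 lower in excitatory neurons.

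The 1 member higher in precursors was Rpl13 (chr8:123102350-123105244, plus strand, mm10), a large-subunit protein and one of the 10 most abundant members. Precursor nuclei had 741, 963 and 422 CPM of Rpl13 in wild-type mice and 254, 602 and 1049 CPM in knockouts. In each library this was above the other 6 classes, of which microglia came next with 536, 400, 222, 190, 334 and 739 CPM. The log2 difference was 1.48 ± 0.11 (edgeR adjusted p = 1.4e-16). It was 1.42 ± 0.15 (edgeR adjusted p = 4.27e-13) in nuclei of 1000 to 2000 UMIs, and 1.48 without knockout replicate 1.

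As a share of all ribosomal protein UMIs, which a library's overall level of these transcripts does not move, Rpl13 made up 6.62%, 9.10% and 6.72% in precursors of wild-type mice and 7.26%, 7.41% and 7.29% in those of knockouts. In the other classes and libraries it made up 1.72% to 3.41%. The ranges did not overlap. The counted gene overlaps no other counted gene, and its reads come from 3′ ends, so which part of the locus they come from was not tested. Microglial markers summed to 145 to 219 CPM in the precursor nuclei and oligodendrocyte markers to 509 to 1588 CPM, against 7831 to 14801 CPM for the precursors' own panel.

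Ribosomal protein genes were next compared with each other, by a fit whose library size was the members' summed UMIs, an alternative added after the data were seen. On this scale a value says how a gene's part of the ribosomal protein UMIs differs between classes. Because the scale follows the members, the median of all genes moved to -0.95 in microglia and 0.56 in excitatory neurons. In microglia 16 members took a larger and 13 a smaller part, where 11.1% of all genes were called higher and 70.2% lower. In excitatory neurons 13 took a larger and 19 a smaller part (65.2% and 9.77% of all genes). The numbers were 9 and 8 in striatal neurons (45.8% and 17.2%) and 2 and 1 in precursors (16.9% and 9.43%). Without knockout replicate 1, 12 and 10 of those in microglia and 10 and 18 of those in excitatory neurons were called again.

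Rps4x, a small-subunit protein encoded on the X chromosome, differed between kinds of neuron. It made up 1.64%, 1.37%, 1.68%, 1.35%, 2.20% and 0.72% of ribosomal protein UMIs in excitatory neurons, and 0.50%, 0.49%, 0.38%, 0.72%, 0.58% and 0.46% in striatal neurons, from wild-type replicate 1 to knockout replicate 3. Excitatory neurons were higher in each library. Rps4x and Rpl15 were the 2 members called higher in excitatory neurons on the ordinary scale, and both are named after their values were seen. Rps4x had 0.44 ± 0.11 there (edgeR adjusted p = 0.000418), and -0.95 ± 0.12 (edgeR adjusted p = 4.89e-09) in striatal and -0.76 ± 0.13 (edgeR adjusted p = 3.81e-06) in inhibitory neurons. All 3 calls held in nuclei of 1000 to 2000 UMIs, at 0.68, -0.99 and -0.64. Libraries had 5 to 196 excitatory, 3 to 321 striatal and 10 to 222 inhibitory nuclei in this range, with the fewest in knockout replicate 1.

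Rpl15, a large-subunit protein, made up 2.41%, 2.14%, 3.88%, 2.06%, 3.00% and 1.5005% of ribosomal protein UMIs in excitatory neurons and 0.76% to 0.99% in microglia. Relative to the members it was 0.80 ± 0.11 higher in excitatory neurons (edgeR adjusted p = 8.31e-10) and -0.83 ± 0.14 in microglia (edgeR adjusted p = 4.32e-07). The gene overlaps Nkiras1 on the other strand. Whether counting used strand is not stated in the labels or headers, and whether reads of the 2 genes were kept apart was not tested. Rps27 also took a smaller part in microglia, 1.16% to 1.98%, with a relative difference of -0.75 ± 0.12 (edgeR adjusted p = 1.39e-07). Rps9 took a larger one, 1.29% to 1.82%, against 0.60% to 1.38% in the other classes, with 0.77 ± 0.11 (edgeR adjusted p = 8.69e-09).

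Rpl26, which lies at the peptide exit of the large subunit, was high in striatal projection neurons. It made up 2.40%, 2.07%, 3.15%, 1.89%, 3.44% and 1.60% of ribosomal protein UMIs there and 1.002% to 1.31% in excitatory neurons. The striatal range lay above the excitatory one in every library. On the ordinary scale Rpl26 was 0.63 ± 0.11 higher (edgeR adjusted p = 2.03e-06) in striatal and -0.62 ± 0.13 (edgeR adjusted p = 5.2e-05) in inhibitory neurons. Rpl31 was the other member called higher in striatal neurons, at 0.62 ± 0.10 (edgeR adjusted p = 1.07e-06), and both are named as the 2 exceptions after their values were seen. In the 1000 to 2000 UMI nuclei they had 0.82 and 0.90, with 3 to 321 striatal nuclei per library. Rpl31 overlaps Tbc1d8 on the other strand, so its reads carry the same doubt as those of Rpl15. In all, 22 of the 86 members overlap another counted gene on the other strand and carry it, including Rpl18 (Sphk2), Rpl10a (CT025652.2), Rpl35 (Arpc5l and Wdr38), Rpl3 (Syngr1) and Rpl32 (Cand2). Only 1 member, Rpl19, overlaps a counted gene on the same strand (Gm11629), where strand cannot separate reads.

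**Figure D3:**
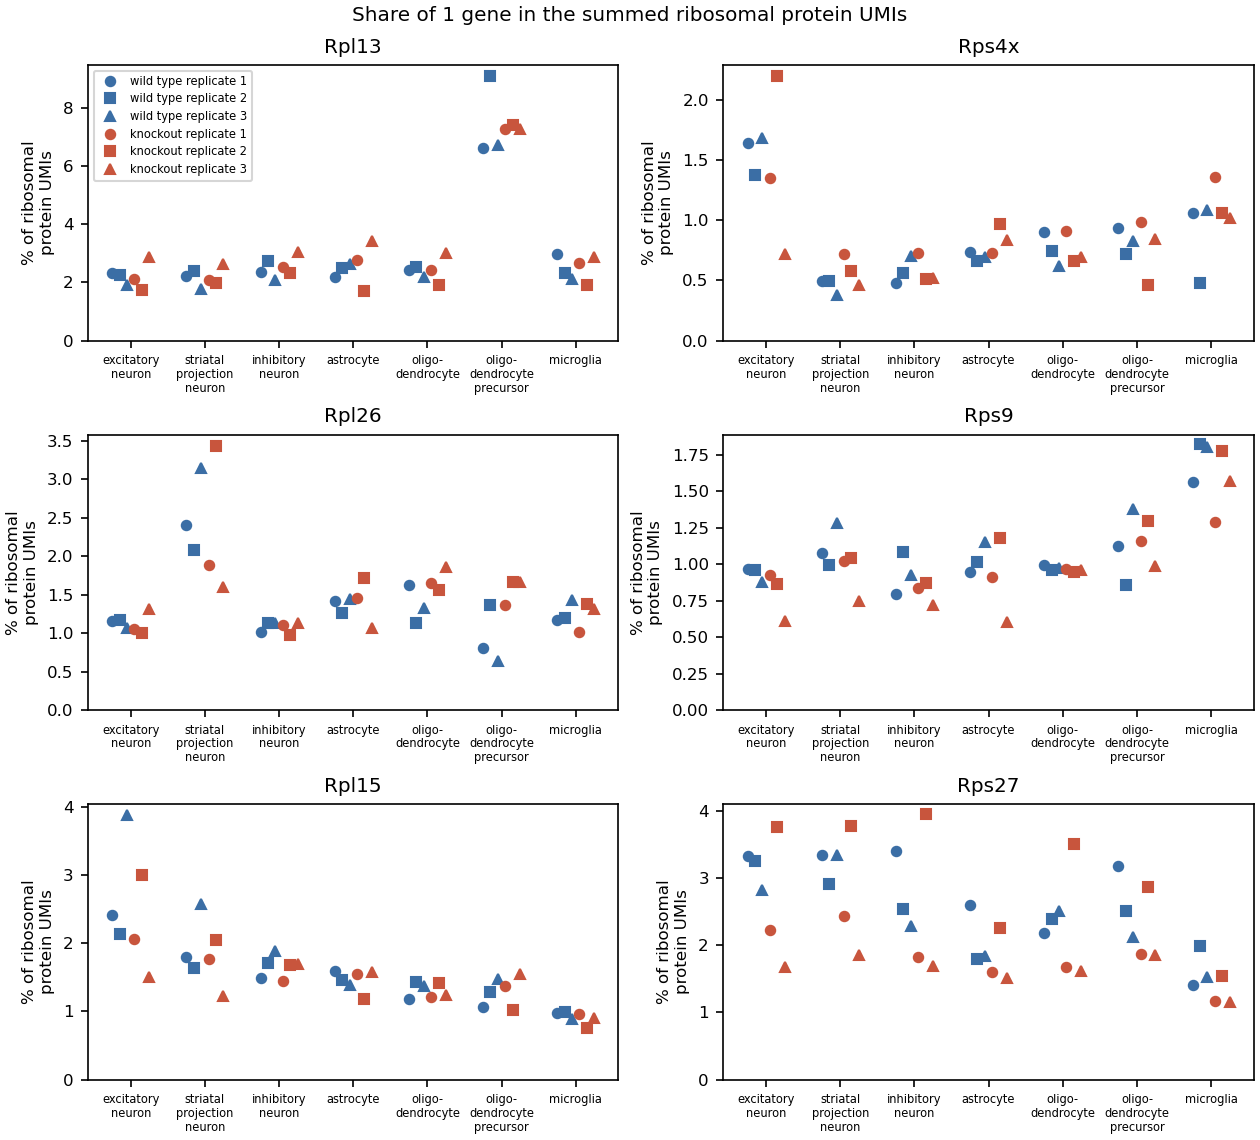
Part of all ribosomal protein UMIs (percent, y axis) taken by Rpl13, Rps4x, Rpl26, Rps9, Rpl15 and Rps27 in each class, with 1 point per library. Rpl13 takes 6.62% to 9.10% in oligodendrocyte precursors and 1.72% to 3.41% elsewhere, and Rps4x takes more in excitatory than in striatal neurons in each library.

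Over all nuclei the most abundant members by mean CPM included Rpl27a at 234, Rpl6 at 214, Rps27 at 210 and Rpl13 at 206. They were followed by Rplp1 at 176, Rpl41 at 164, Rps21 at 161, Rps13 at 156 and Rpl37a at 154. Counts here are of 3′ ends and not corrected for length, and the share of intronic reads counted can differ between genes, so this order is of captured UMIs and not of transcripts. All 86 genes had at least 1 UMI, 83 had at least 10 in every library, and the median member had 7934 UMIs over the 6 libraries. For the genotype fits the filter on low counts removed 3 members in excitatory and in striatal neurons, 5 in inhibitory neurons and in oligodendrocytes, 7 in astrocytes and in microglia, and 20 in oligodendrocyte precursors.

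The paralogs were unevenly represented. Rpl22l1 gave more UMIs than its partner Rpl22 in every library, 1482, 1679, 1041, 1618, 1018 and 2722 against 650, 687, 476, 973, 454 and 1114. Rpl36al likewise exceeded Rpl36a, with 4113 against 2842 UMIs over all libraries. Rpl7l1 stayed below Rpl7 in 5 libraries, 163, 156, 170, 153 and 239 against 629, 568, 336, 319 and 1192, and exceeded it in knockout replicate 1, with 916 against 827. Rps27l, a p53 target gene, had 747 UMIs in all against 17275 of Rps27. The longest run of bases shared between these partners was 11 to 26, so few reads could be assigned to either.

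Other copies could share reads. Rps27rt had 393 UMIs and shares a run of 341 bases with Rps27, so its reads are uncertain. The testis-type paralogs Rpl10l and Rpl39l had 1 and 2 UMIs over all 6 libraries, and Rpl3l, the muscle paralog of Rpl3, had 44, of which 27 were in knockout replicate 1. Of the symbols left out by the name rule, Rpl10-ps3 shares 740 bases with Rpl10, Rpl9-ps6 402 with Rpl9 and Rpl36a-ps1 287 with Rpl36a. Rpl9-ps6 had 16 to 57 UMIs per library, and the other 4 such symbols had 0 to 20.

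No difference of ribosomal protein genes between the genotypes passed the tests. Over all nuclei the summed share was 1.07%, 0.740% and 0.485% in wild-type mice and 0.2505%, 0.627% and 1.72% in knockouts. The knockout libraries held both the lowest and the highest value, and the wild-type range lay inside theirs. The means were 0.764% ± 0.292 (SD, n = 3) and 0.865% ± 0.763 (SD, n = 3), with an exact 2-sided permutation p of 0.9, where the smallest p that 3 against 3 mice allow is 0.1. In microglia, the cells in which Trem2 is made, the means were 1.52% ± 0.404 and 1.67% ± 0.928 (exact permutation p = 0.9, n = 3 each). The knockout mean in microglia was 2.15% without knockout replicate 1 (exact permutation p = 0.3, n = 3 and 2) and 1.23% without knockout replicate 3. The log2 ratio of knockout to wild type was between -0.11 and 0.44 over the 7 classes, with exact permutation p of 0.9 to 1. Relative to excitatory neurons of the same mouse it was between -0.19 and 0.10, with exact permutation p of 0.6 to 1.

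Gene by gene, edgeR's test called 0 genes of any kind between the genotypes in all nuclei and in each of the 7 classes, so percent called was 0 in all 8 fits. Without knockout replicate 1 it was again 0 in 7 of them and 0.0109 in oligodendrocytes, where 1 gene that is no member was called, and without knockout replicate 3 it was 0 in all 8. With all 6 libraries no member had an unadjusted p below 0.05 in any of the 8 fits, and DESeq2 called 0 members as well. Over all nuclei 633 of 16551 genes had an unadjusted p below 0.05. The smallest adjusted p of any member in the edgeR fits of all 6 libraries was 0.616, for Rpl7a in astrocytes. In the edgeR fits without knockout replicate 1 the smallest was 0.513, in microglia. Without knockout replicate 3 the smallest edgeR adjusted p was 0.105, in astrocytes.

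The members' differences moved with which of 2 knockout libraries was left out. Over all nuclei 58 of 83 members tested were higher in knockout, with a median log2 ratio of 0.09 against 0.05 for all genes, and 82 of 83 were higher without knockout replicate 1, with a median of 0.46. In microglia 52 of 79 were higher with a median of 0.12, and 74 of 79 with a median of 0.47 without that library. In inhibitory neurons 13 of 81 were higher, and 56 of 82 without it. In astrocytes these numbers were 23 of 79 and 62 of 79, and in oligodendrocytes 29 of 81 and 72 of 82. In precursors they were 26 of 66 and 59 of 75. Leaving out knockout replicate 3 moved the members the other way. Over all nuclei 1 of 83 was then higher in knockout, with a median of -0.73, and in microglia 10 of 80 with a median of -0.30. In the other 6 classes 1 to 2 members were higher and the medians were -0.77 to -0.65. Members move together in a library, so these counts do not stand for separate measurements.

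In microglia without knockout replicate 1, 18 of the 79 members had an unadjusted p below 0.05, against 5.38% of all genes, and none passed the adjustment. Without knockout replicate 1, striatal neurons had 7 of 83 such members (3.40% of all genes) and precursors 4 of 75 (3.58%). Excitatory neurons had 3 of 83 (2.74%) and astrocytes 3 of 79 (4.62%). Inhibitory neurons (2.16%) and oligodendrocytes (3.41%) had 0. Without knockout replicate 3 instead, 1 of 80 members in microglia had an unadjusted p below 0.05, against 12.7% of all genes. Oligodendrocytes then had 25 of 82 (14.6% of all genes), excitatory neurons 19 of 83 (16.2%) and astrocytes 14 of 79 (18.9%). Striatal neurons had 7 of 83 (13.3%), precursors 7 of 65 (16.2%) and inhibitory neurons 2 of 82 (13.3%). Rps3a1, a small-subunit protein, had normalised levels of 145, 140 and 134 CPM in wild-type and 98.1, 233 and 355 CPM in knockout microglia. Knockout replicates 2 and 3 lay above the wild-type mice and knockout replicate 1 below them. The log2 ratio was 0.70 ± 0.45 (edgeR adjusted p = 0.783), and 1.06 (edgeR adjusted p = 0.513) without knockout replicate 1. Rpl7 and Rpl22, the other 2 members of smallest p in microglia, had 0.72 ± 0.45 and 0.54 ± 0.42, with the same arrangement of libraries for Rpl22.

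**Figure D4:**
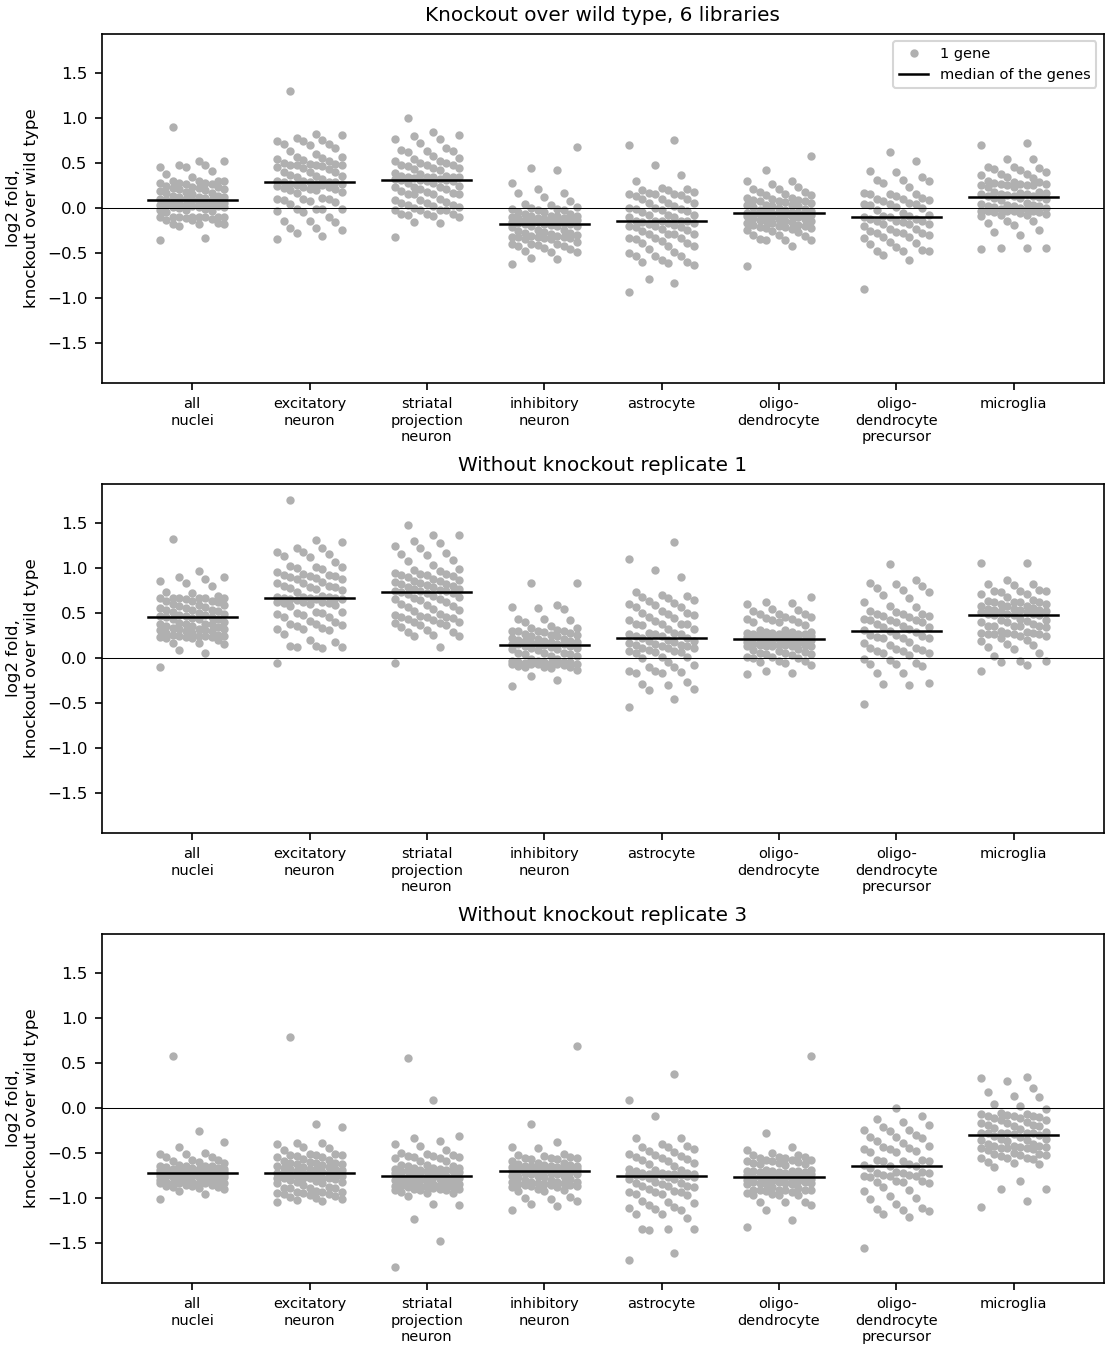
Log2 ratio of knockout to wild type for each ribosomal protein gene in all nuclei and in each class, from all 6 libraries, without knockout replicate 1 and without knockout replicate 3, with 1 point per gene tested in the fit of 6 libraries. In all nuclei the members' median is 0.09 with 6 libraries, 0.46 without knockout replicate 1 and -0.73 without knockout replicate 3, and no ribosomal protein gene was called in any of these fits.

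Knockout replicate 3 was the highest of the 6 libraries for 80 of 83 members over all nuclei, where 17.6% of all genes were highest in that library. The median member had 2.61 times the median of the other 5 libraries, against 0.990 for all genes. Rpl17, a large-subunit protein, stood out with a normalised level of 398 CPM against 50.9 to 135 CPM in the other 5 libraries, a ratio of 5.93. Rplp1, Rpl32, Rps16, Rps25 and Rpl34 had ratios of 4.53, 4.31, 4.26, 4.15 and 4.01. At the other end Rps27rt, Rpl6, Rpl7l1 and Rps27 had 1.08, 1.27, 1.28 and 1.29. These genes are named for their place at the ends after their values were seen.

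How far knockout replicate 3 exceeded the rest differed between classes by the members' median ratio. It was 3.20 in excitatory, 3.26 in striatal and 1.85 in inhibitory neurons, 2.41 in oligodendrocytes and 1.69 in microglia. The mitochondrial share, which is a sign of cytoplasmic RNA in a nuclear preparation, was also highest in this library. Among its nuclei with at most 0.25% mitochondrial UMIs the ribosomal protein share was still 1.56%, against 0.198% to 0.848% in the other libraries' nuclei of that kind. The barcodes removed by the filter held 1.95% ribosomal protein UMIs in this library and 0.768% to 1.80% in the others. What raises these transcripts in this library was not tested.

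Knockout replicate 1 showed the reverse. Its members were lower than the mean of the other 5 libraries by a median of -1.81 on the log2(CPM + 1) scale, against -0.39 for all genes. Members ranged from -2.54 to 0.33, and the highest was Rpl7l1. Intron bases were counted as those of a gene's span that lie in no exon of any annotated transcript. An intron covered by an exon of another transcript is therefore left out, and Rpl9 and Rps13 have 0. Rpl7l1 has 5271 intron bases, where the median member has 1167 and the median gene 18885. The 5 members with more intron bases, among them Rps14 with 29055 and Rpl11 with 22467, had values of -1.90 to -1.45. Across all 83 members, rho between this value and intron bases was 0.35 in all nuclei. By class it was -0.01 in astrocytes and 0.25 to 0.40 in the others, and its cause was not tested. Malat1, a noncoding RNA kept in the nucleus, made up 9.11% of the UMIs of knockout replicate 1 against 18.1% to 29.6% in the other libraries. The Cell Ranger version and this mouse cannot be told apart, and no label or header states the setting for intronic reads.

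Rpl17 and Rpl7l1, the highest members in these 2 ranges, were among the 3 with the smallest genotype p over all nuclei. Rpl7l1 had normalised levels of 14.7, 10.9 and 11.8 CPM in wild-type mice and 24.1, 12.9 and 16.5 CPM in knockouts, with a log2 ratio of 0.52 ± 0.31 (edgeR adjusted p = 0.694) that was 0.24 without knockout replicate 1. Rpl17 had a log2 ratio of 0.89 ± 0.80 (edgeR adjusted p = 0.756), which turned to -0.61 without knockout replicate 3. Rpl6 had -0.36 ± 0.36 (edgeR adjusted p = 0.789) over all nuclei. In astrocytes Rpl7a was not called, at -0.84 ± 0.42 (edgeR adjusted p = 0.616). It had 85.9, 54.8 and 64.6 CPM in wild-type mice and 25.6, 45.8 and 52.8 CPM in knockouts. Its groups did not overlap, and knockout replicate 1 was the lowest. The share of all genes whose groups were separate was not counted, so no weight is placed on this.

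Trem2 lies on chromosome 17 with 8 of the members, Rps2, Rpl3l, Rps10, Rpl10a, Rps28, Rps18, Rpl7l1 and Rpl36. The nearest, Rpl7l1, is 1.564 megabases away. The log2 ratios of knockout to wild type over all nuclei were 0.24 for Rps2, 0.29 for Rps10, -0.11 for Rpl10a, -0.11 for Rps28, 0.02 for Rps18 and 0.30 for Rpl36. None was called, and Rpl3l had too few UMIs for the test.

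Genes that work with the ribosomal proteins were read from the same class comparison. Fau, a fusion gene whose product yields a ribosomal protein and a ubiquitin-like part, was higher in microglia at 1.60 ± 0.12 (edgeR adjusted p = 4.23e-17). Of the 8 genes listed as elongation factors, 5 were higher in microglia and 0 lower, with a median of 0.63, where 24% of all genes were called higher and 28.7% lower. Among these Eef1a1, which delivers aminoacyl-tRNA, had 0.96 ± 0.09, and Eef2k, the kinase that inhibits Eef2 and is in the same list, had 1.65 ± 0.11. In excitatory neurons 2 of the 8 were higher, Eef2k and the neuronal isoform Eef1a2, and 6 were lower. Of 17 other TOP transcripts 8 were higher and 1 lower in microglia, with a median of 0.34: Tpt1 at 1.06 ± 0.11, Rack1 at 0.98 ± 0.13 and Pabpc1 at 0.86 ± 0.11 were higher, and Nap1l1 was lower at -0.85 ± 0.14.

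The counts of the next lists stand beside 24% of all genes called higher in microglia and 28.7% called lower. Of 12 genes of ribosome quality control and ribosome stress 5 were higher in microglia and 0 lower, with a median of 0.23. Of 75 mitochondrial ribosomal proteins tested 8 were higher and 10 lower, with a median of -0.05, and of 33 ribosome assembly factors 3 were higher and 5 lower, with a median of -0.10. Of 21 genes listed for the mTORC1 pathway 6 were higher and 4 lower, with a median of 0.11, which is near the share of all genes called higher. Rptor, which encodes the mTORC1 scaffold, was higher at 1.21 ± 0.10, and the S6 kinase gene Rps6kb2 was lower at -0.91 ± 0.14. That list also holds Pdk1, which encodes a pyruvate dehydrogenase kinase and no part of the pathway, and which was among the 6. Of 13 mitochondrially encoded transcripts 0 were called in microglia, and of 9 nuclear noncoding RNAs 1 was higher and 8 lower. These medians stand beside -0.13 for all genes and 0.84 for the ribosomal protein genes. Between the genotypes no gene of any of these lists was called in all nuclei or in microglia.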

How the data were processed

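The deposited files hold UMI counts per gene and barcode for 6 libraries, made with the Chromium 3′ v3.1 kit per the labels' protocols. They were made with Cell Ranger 6.1.2, and 7.0.0 for knockout replicate 1, per the file headers, on mm10 with Seurat also named per the submitters' processing notes. The counts were not normalised. Kept barcodes had 200 genes or more and a mitochondrial share of 5% or less, without removal of the 1273 doublets called by Scrublet (6% expected), which were dropped in an alternative. A nucleus joined a class with at least 3 of its panel's markers and a lead of at least 2 over the next panel. Every column of the files matched a sample, leaving 0 unmatched. Counts were summed per library and class and tested with edgeR 4.0.16 (TMM, filterByExpr, glmQLFit), with the mouse as a block in the class comparison. Benjamini-Hochberg adjustment ran over all genes. Exact permutation tests compared shares between genotypes and within-mouse log2 ratios between classes.

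Members, gene lists and tests were chosen with earlier results of these data known. Genes were named by rule: the 10 highest by CPM, paralogs, chromosome 17 members, the 3 of smallest genotype p per class, and the 4 called with the largest class difference. Exceptions are marked where they stand, and some genes the rule names are not reported here. Alternatives were DESeq2 1.42.0, other size factors, other filters and gates, and leaving out each library. The 1000 to 2000 UMI range and the fit scaled to the members were added after the data were seen. The fits were tested on simulated data. Start sites are from RefSeq, and gene spans, overlaps and shared runs from the mm10 annotation supplied, which held all 86 identifiers. Replicate numbers follow accession order and pair no mice.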

Additional observations from a re-analysis of the deposited data

How the results depend on the processing

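All 127 alternatives of the gene-by-gene genotype test left 0 members called, 328 of 384 alternatives of the class differences named by rule kept call and direction, and the other 56 kept the direction and lost the call. In nuclei of 1000 to 2000 UMIs, and in brackets there without knockout replicate 1, the members called lower numbered 17 (16) in excitatory, 1 (1) in inhibitory and 3 (4) in striatal neurons, and 4 (5) in oligodendrocytes. Those called higher numbered 3 (6) in inhibitory neurons, 2 (3) in astrocytes and 0 (0) in oligodendrocytes, without that library 5 in striatal neurons and 41 in microglia, and 1 was then lower in astrocytes. With at most 1% mitochondrial UMIs 12 were lower in inhibitory and 28 in striatal neurons, 5 in precursors and 0 in oligodendrocytes, and 0 were higher in astrocytes. With at least 500 genes 14 were lower in inhibitory neurons, and 6 were higher in astrocytes and 17 in oligodendrocytes. With doublets removed 2 were higher and 2 lower in astrocytes and 0 lower in oligodendrocytes. With relative-log-expression size factors 3 were lower in precursors. Leaving out 1 replicate in turn gave 1 to 2 higher in excitatory neurons, 15 to 29 lower in inhibitory and 29 to 61 in striatal neurons, 2 to 8 higher and 0 to 1 lower in astrocytes, 0 to 1 lower in oligodendrocytes, and 1 to 2 higher and 4 to 11 lower in precursors. Relative to the members, leaving out knockout replicate 1 gave 3 higher and 3 lower in inhibitory neurons, 5 lower in striatal neurons, 3 higher and 0 lower in astrocytes, 6 higher and 3 lower in oligodendrocytes and 0 lower in precursors. The log2 class shares over excitatory neurons turned in nuclei of 1000 to 2000 UMIs to -0.0087 in astrocytes and -0.081 in oligodendrocytes, and without knockout replicate 1 to -0.15 and -0.23, with -0.019 in striatal neurons and -0.081 in precursors. The log2 ratio of summed shares between genotypes, which passed no test, ranged with 1 replicate left out from -0.80 to 0.62 in all nuclei, -0.83 to 0.82 in excitatory, -0.78 to 0.31 in inhibitory and -0.81 to 0.89 in striatal neurons, -0.60 to 0.39 in astrocytes, -0.80 to 0.36 in oligodendrocytes, -0.69 to 0.27 in precursors and -0.31 to 0.50 in microglia. It turned sign in oligodendrocytes without doublets (-0.022), with the stricter gate (-0.0037) and without Malat1 and mitochondrial UMIs (-0.14), in astrocytes with the stricter gate (-0.055) and without those UMIs (-0.16), and in the 1000 to 2000 UMI nuclei in precursors (0.0070) and microglia (-0.078), and without knockout replicate 1 in inhibitory neurons (0.14) and precursors (0.24). Relative to excitatory neurons it ranged with 1 replicate left out from -0.35 to 0.067 in inhibitory neurons, -0.0076 to 0.14 in striatal neurons, -0.24 to 0.26 in astrocytes, -0.35 to 0.14 in oligodendrocytes, -0.35 to 0.15 in precursors and -0.12 to 0.51 in microglia. It was 0.18 in astrocytes with at most 1% mitochondrial UMIs, 0.0024 in oligodendrocytes with at least 500 genes, and -0.15 in microglia of 1000 to 2000 UMIs (-0.42 without knockout replicate 1). Leaving out 1 replicate moved the genotype log2 ratio of Rpl17 from -0.61 to 1.32 in all nuclei, -0.52 to 1.75 in excitatory and -0.76 to 1.47 in striatal neurons, of Rpl3 in excitatory neurons from -0.40 to 1.17 and of Rpl35 in striatal neurons from -0.40 to 1.22, each lowest without knockout replicate 3, and Rps12 in oligodendrocytes was 0.082 in the 1000 to 2000 UMI nuclei. The causes were not tested. No paired analysis was possible because replicate numbers follow accession order. With 3 mice a group, classes of 82 to 2144 nuclei per library and a highest library 3.59 to 8.54 times the lowest within a class, depth and library spread limit the genotype comparison, and the smallest difference it could show was not measured.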
